A study of Arabidopsis thaliana with 12 samples.

Results

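The WRKY transcription factors of Arabidopsis thaliana, a family of plant DNA-binding proteins, are described here across 4 groups of rosettes that differ in the gene LSD1. The 60 members were picked by locus from a list of the family, and all 60 were present among the 27416 gene models of the count table. Of these, 55 passed the low-count filter and were tested among the 19487 genes that did so. WRKY41, WRKY43, WRKY55, WRKY58 and WRKY62 stayed below the filter. The numbering of the listed members has gaps, and counts, shares and ranks of members refer to the listed 60 alone.

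Messenger RNA was sequenced from rosettes of the Ws-0 (Wassilewskija) accession, harvested from plants 2 weeks old that had grown with 16 h of light, and each group had 3 biological repeats according to the labels. The lsd1-1 group carried a mutant allele of LSD1, with no transgene named in the labels. The LSD1-GFP group expressed a fusion of LSD1 and green fluorescent protein under the 35S promoter, a viral promoter active in most plant cell types. The LSD1-GR+DEX group expressed LSD1 joined to the glucocorticoid receptor (GR) domain from the same promoter, had grown on nylon mesh and was moved to medium with 30 µM dexamethasone (DEX), a steroid that lets such fusions enter the nucleus. The wild-type group was unmodified Ws-0, and lsd1-1, LSD1-GFP and wild type were left untreated. LSD1-GR plants without dexamethasone and wild-type plants moved to dexamethasone were not analysed here, so the effects of transgene, steroid and transfer in LSD1-GR+DEX cannot be told apart. A line with GFP alone was not analysed here, and whether a transgenic group came from 1 or several transformation events is not given in the sources used here.

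WRKY factors carry a DNA-binding domain with a zinc finger and a conserved peptide that gives the family its name, and they bind the W box, a short element built on TTGAC. By the number of domains and the type of zinc finger they fall into group I, with a pair of WRKY domains, groups IIa to IIe, and group III. Many are switched on in leaves by pathogens, salicylic acid and reactive oxygen, are phosphorylated by MAP kinases, and act on the promoters of other WRKY genes. LSD1 itself has zinc fingers and holds back the spread of cell death in leaves.

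The promoters of 5 members are shown because the results turn on these genes and because they differ in the element the family binds. WRKY30, WRKY33 and WRKY53 are the 3 members called higher in lsd1-1 with more than 1 W box within 250 bases of the annotated transcript start, while WRKY59 and WRKY70 were among the most raised and held none there. The shorter core TTGAC, left unmarked when it stands alone, was present at 1 site in the WRKY70 window and at 0 in that of WRKY59. Each window is the 250 bases before the start, read 5′ to 3′ on the strand of the gene from the TAIR10.1 reference genome of RefSeq. Capitals mark the W box, searched as TTGACC and TTGACT on both strands, so that a box on the opposite strand reads GGTCAA or AGTCAA. No boxes overlapped in these windows. WRKY30 lies at chr5:8154711-8154960 (minus strand), WRKY33 at chr2:16107985-16108234 (plus), WRKY53 at chr4:12393983-12394232 (minus), WRKY59 at chr2:9336279-9336528 (minus) and WRKY70 at chr3:20910624-20910873 (minus).
WRKY30: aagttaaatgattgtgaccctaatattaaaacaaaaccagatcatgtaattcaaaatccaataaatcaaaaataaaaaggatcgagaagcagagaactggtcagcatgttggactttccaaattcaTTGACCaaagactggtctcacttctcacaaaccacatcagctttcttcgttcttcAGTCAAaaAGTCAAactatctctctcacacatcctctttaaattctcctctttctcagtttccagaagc
WRKY33: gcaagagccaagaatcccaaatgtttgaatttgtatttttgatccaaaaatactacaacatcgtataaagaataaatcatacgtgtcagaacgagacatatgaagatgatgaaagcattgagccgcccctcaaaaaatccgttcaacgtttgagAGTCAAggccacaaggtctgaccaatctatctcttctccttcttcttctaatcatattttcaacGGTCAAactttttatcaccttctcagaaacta
WRKY53: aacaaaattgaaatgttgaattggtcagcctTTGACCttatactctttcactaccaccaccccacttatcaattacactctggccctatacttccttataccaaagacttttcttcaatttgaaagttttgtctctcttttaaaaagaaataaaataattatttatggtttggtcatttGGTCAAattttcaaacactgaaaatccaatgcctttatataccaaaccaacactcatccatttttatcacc
WRKY59: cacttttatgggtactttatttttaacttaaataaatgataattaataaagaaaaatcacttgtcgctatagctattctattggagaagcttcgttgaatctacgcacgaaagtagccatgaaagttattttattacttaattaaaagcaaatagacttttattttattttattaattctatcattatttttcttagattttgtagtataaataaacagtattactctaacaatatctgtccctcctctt
WRKY70: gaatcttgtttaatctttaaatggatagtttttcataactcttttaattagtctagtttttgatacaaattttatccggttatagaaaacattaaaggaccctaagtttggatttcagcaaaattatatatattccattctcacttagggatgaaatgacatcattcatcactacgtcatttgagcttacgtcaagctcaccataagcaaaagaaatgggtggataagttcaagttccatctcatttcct

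WRKY30 held 3 boxes, 2 of them 2 bases apart on the opposite strand, and WRKY33 and WRKY53 held 2 each. Among all 60 members, 21 (35.0%) had at least 1 W box in this window and 11 (18.3%) had 2 or more. Of 26710 counted nuclear genes with such a window, 28.5% had at least 1 and 6.22% had 2 or more. Of the 13 members called higher in lsd1-1, 4 (30.8%) had at least 1 box, against 15 of the 42 tested members (35.7%) that were not. Of the 21 members called higher in LSD1-GR+DEX, 11 (52.4%) had at least 1, against 8 of the other 34 tested (23.5%). Of the 8 called higher in LSD1-GFP, 2 (25.0%) had at least 1, against 17 of the other 47 tested (36.2%). The shorter core TTGAC was found in 44.8% of all windows. It was found in 9 of the 13 members called higher in lsd1-1 (69.2%), against 21 of the other 42 (50.0%). For LSD1-GR+DEX it was in 15 of the 21 (71.4%) against 15 of the other 34 (44.1%), and for LSD1-GFP in 3 of the 8 (37.5%) against 27 of the other 47 (57.4%). These are matches of letters and not measured binding sites.

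**Figure D1:**
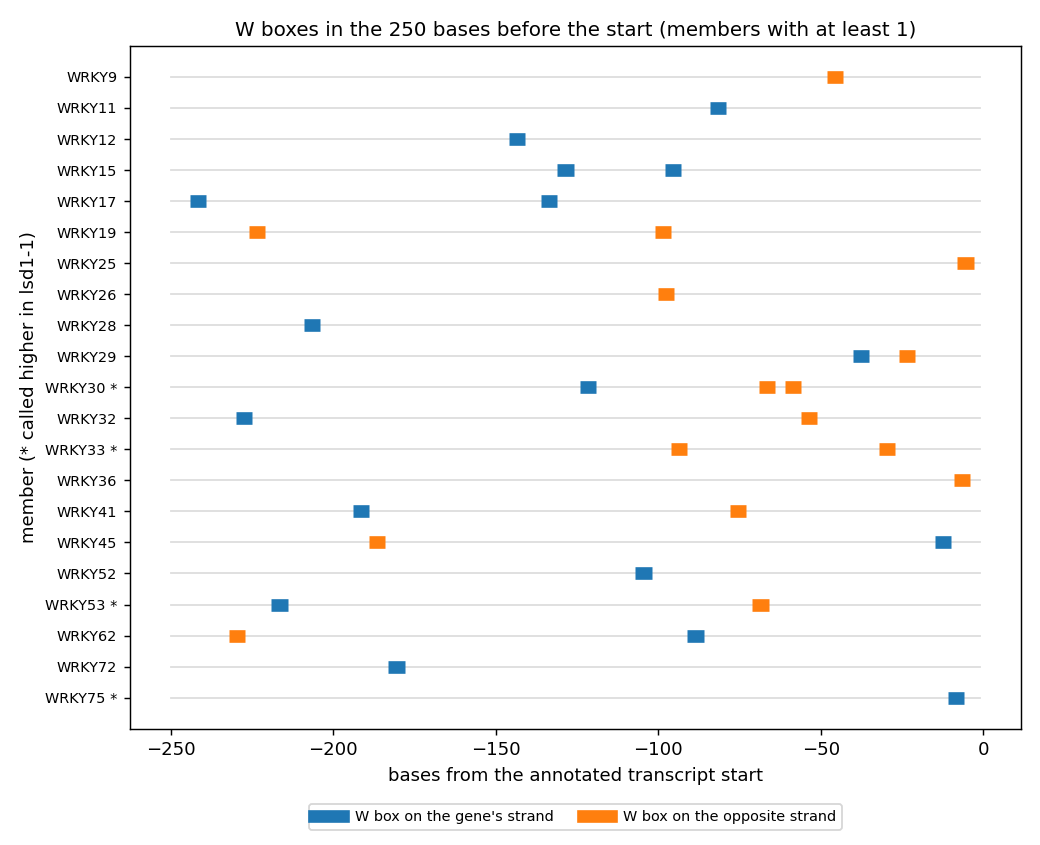
W boxes (TTGACC or TTGACT) in the 250 bases before the annotated start of each of the 21 members that had at least 1. The x axis gives bases from the start, and the colour gives the strand. WRKY30 has 3 boxes, WRKY33 and WRKY53 have 2 each and WRKY75 has 1, and these 4 are the members with a box that were called higher in lsd1-1 (star).

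The 12 libraries held 9781360 to 11503432 counts, with 21916 to 22284 genes detected. LSD1 stood at 0.0969, 0.186 and 0 CPM in lsd1-1, 2190.1, 2703 and 2159 CPM in LSD1-GFP, 169, 218 and 147 CPM in LSD1-GR+DEX and 22.9, 22.2 and 25.7 CPM in wild type, in the order of replicates 1 to 3 that is kept throughout, so it went with the labels of all 12 libraries. Levels are in CPM, the counts scaled to a common library size with the TMM correction. All 5 leaf markers (RBCS1A, LHCB1.3, LHCB2.1, RCA and AS1) were present in every library, with a summed level of 28604 to 33749.9 CPM in lsd1-1, 44051 to 51565 in LSD1-GFP, 26128 to 28139 in LSD1-GR+DEX and 29229.8 to 37611 in wild type. The 12 root markers summed to 1117 to 1282 CPM in lsd1-1, 1376 to 2027 in LSD1-GFP, 2663 to 2882 in LSD1-GR+DEX and 1082 to 1337 in wild type. Whether these transcripts came from root tissue or from the rosette cannot be told apart. In whole rosettes a lower level can come from fewer cells of a type or from less RNA per cell, which cannot be told apart. The libraries were stranded, but whether counting used the strand is not given in the sources used here. Several members overlap a counted gene on the opposite strand in the reference, among them WRKY1, WRKY2, WRKY33, WRKY40, WRKY53 and WRKY69, and reads of such pairs may not have been kept apart.

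In a joint test of the 4 groups (edgeR's quasi-likelihood F test, called at an adjusted p below 0.05), 34 of the 55 members differed, which is 61.8% against 49.5% of all genes tested. The 34 came from every subfamily. A further 9 members were called in at least 1 pair of groups without passing the joint test (WRKY9, WRKY16, WRKY24, WRKY29, WRKY36, WRKY39, WRKY44, WRKY56 and WRKY72), and 12 were called in no comparison: WRKY4, WRKY12, WRKY13, WRKY14, WRKY19, WRKY21, WRKY22, WRKY23, WRKY32, WRKY35, WRKY50 and WRKY52. With replicate number as a block, WRKY19 was called in LSD1-GFP against wild type (adjusted p = 0.0307) and in the joint test (adjusted p = 0.0341). The block also called WRKY13 lower in LSD1-GR+DEX than in wild type (log2 -1.31, adjusted p = 0.0286, and 0.0509 without the block). WRKY52 (RRS1) and WRKY19 are immune receptors of the NBS-LRR type that carry a WRKY domain. WRKY52 (AT5G45260) stood at 21.7, 19.1 and 22.6 CPM in lsd1-1, 24.7, 23.2 and 23.7 CPM in LSD1-GFP, 20.9, 24.1 and 22.2 CPM in LSD1-GR+DEX and 25.5, 24.4 and 23.6 CPM in wild type. Its 12 values lay between 19.1 and 25.5 CPM. The 5 members below the filter reached at most 1.52 CPM in any library. WRKY62, a negative regulator of basal defence, had 0.872, 0.835 and 0.981 CPM in lsd1-1 and 0.386, 0.269 and 0.189 CPM in wild type and was not tested.

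**Figure D2:**
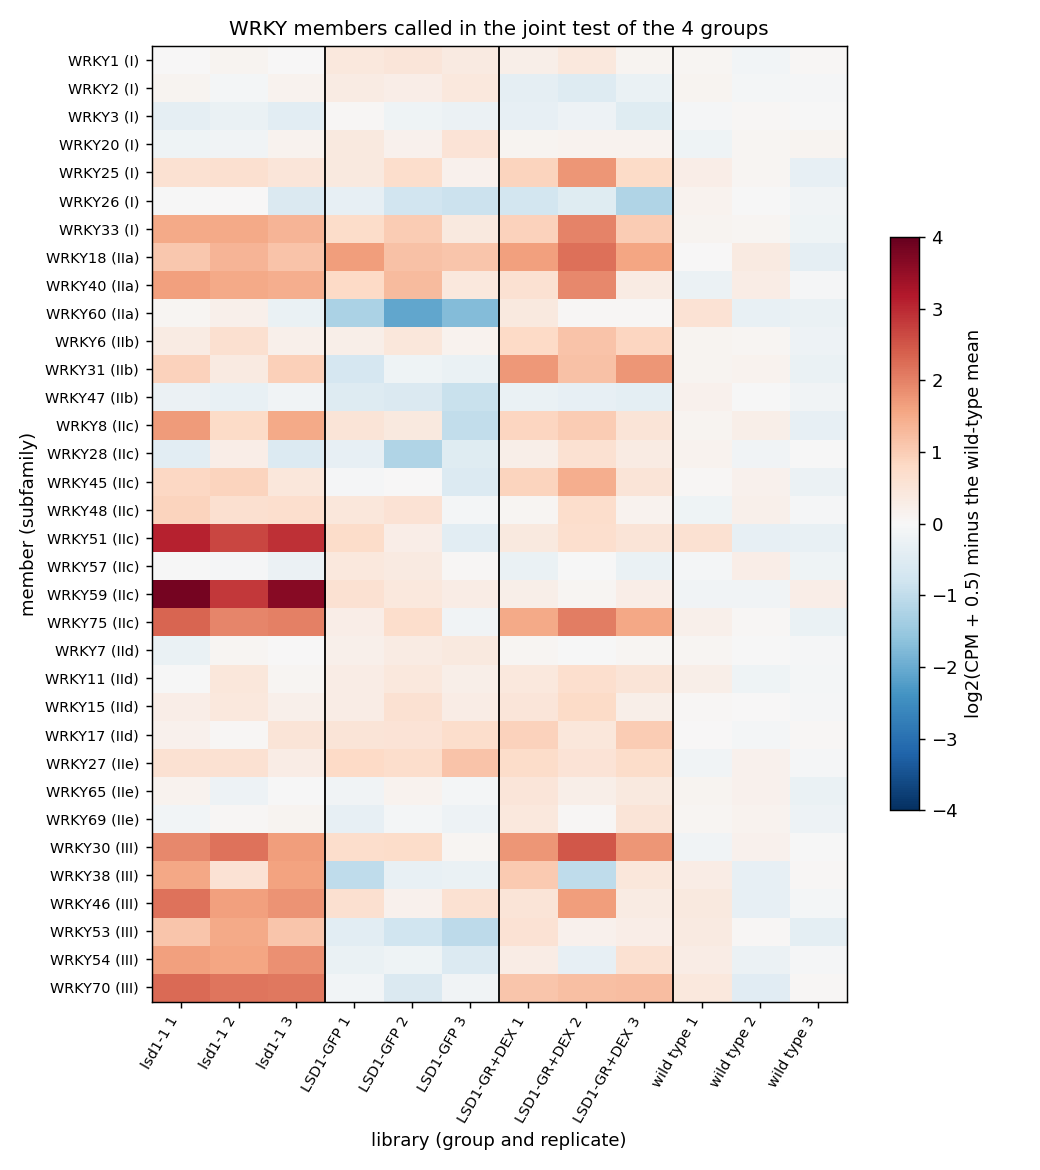
Colour gives log2(CPM + 0.5) minus the mean of the wild-type libraries for the 34 members that differed among the 4 groups, 1 column a library and 1 row a member with its subfamily. The darkest reds are WRKY59 and WRKY51 in the 3 lsd1-1 libraries, the darkest blues are WRKY60 in the LSD1-GFP libraries, and replicate 2 of LSD1-GR+DEX is darker than its group for WRKY33, WRKY40 and WRKY46.

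Setting lsd1-1 beside wild type addresses which members differ between the mutant line and wild type in untreated rosettes. WRKY genes were higher in the mutant far more often than lower: 13 of 55 rose and 1 fell. Those called were 25.5% of the members, against 8.3% of all genes tested, of which 5.19% rose and 3.1% fell. Counting only whether replicates overlapped, 22 members lay wholly above wild type and 5 wholly below, where 13.8% and 12.8% of all genes did. The median log2 difference was 0.22 over the 55 members and -0.01 over all genes. The rises were gathered in group III, with 5 of 7 tested members, group IIc, with 5 of 14, and group IIa, with 2 of 3. In group I 1 of 11 rose and 1 fell, and none of the 20 tested members of groups IIb, IId and IIe was called in this fit, which did not pair replicates. The 5 with the largest log2 differences, WRKY59, WRKY51, WRKY30, WRKY75 and WRKY70, were each more than 4-fold higher. No leaf or root marker was called in this comparison, but 5 of the 7 markers of handling and time of day rose, HSP70 by a log2 difference of 2.67 (SE 0.61, adjusted p = 0.029) and GI, a clock gene, by 1.77 (SE 0.32, adjusted p = 0.00709). Of these 5 calls GI alone held without any 1 library, and it was the only one left without lsd1-1 replicate 2 or without wild-type replicate 1 or 3. Leaving out any other library kept 2 or 3 of the 5. HSP70 was at log2 2.00 without lsd1-1 replicate 2 (adjusted p = 0.0688) and at 3.40 without wild-type replicate 2 (adjusted p = 0.011). The part of these markers in the WRKY results was not tested. With replicate number as a block, which pairs same-numbered samples, 19 of the 55 members were called, and 2889 of the 19487 genes. Called only then were WRKY6 (adjusted p = 0.00509) and WRKY31 (adjusted p = 0.0424) of group IIb, WRKY15 of group IId, WRKY38 and WRKY45. WRKY15 had a log2 difference of 0.30 (adjusted p = 0.0298 with the block).

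Group III holds the best-known salicylic acid factors. WRKY70 (AT3G56400), which promotes salicylic acid responses and restrains jasmonate responses, had 72.7, 65.9 and 64.3 CPM in lsd1-1, 13.4, 9.74 and 13.3 CPM in LSD1-GFP, 32.3, 34.2 and 35.0 CPM in LSD1-GR+DEX and 19.7, 10.5 and 15.1 CPM in wild type. The 3 lsd1-1 values lay above every other library, and LSD1-GR+DEX stood between the mutant and the other groups with no overlap on either side. WRKY70 was 4.49-fold higher in lsd1-1 than in wild type, a log2 difference of 2.17 (SE 0.17, adjusted p = 9.55e-06). WRKY54 (AT2G40750), the closest relative of WRKY70 and its partner in restraining leaf senescence, had 6.01, 5.75 and 6.87 CPM in lsd1-1, 1.21, 1.32 and 0.914 CPM in LSD1-GFP, 2.06, 1.15 and 2.67 CPM in LSD1-GR+DEX and 2.02, 1.26 and 1.51 CPM in wild type. Here too the lsd1-1 libraries lay above the rest, at 3.88-fold the wild-type level (log2 1.96, SE 0.27, adjusted p = 0.0005), while LSD1-GR+DEX overlapped wild type. WRKY53 (AT4G23810), a regulator of the onset of leaf senescence, had 12.6, 16.9 and 12.5 CPM in lsd1-1, 4.02, 3.03 and 2.44 CPM in LSD1-GFP, 8.5, 6.34 and 6.87 CPM in LSD1-GR+DEX and 7.23, 5.74 and 4.16 CPM in wild type. It was 2.45-fold higher in lsd1-1, a log2 difference of 1.29 (SE 0.21, adjusted p = 0.00186), and its mutant and wild-type values did not overlap.

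WRKY46 (AT2G46400), which acts with WRKY53 and WRKY70 in basal resistance to bacteria, had 28.5, 19.6 and 21.7 CPM in lsd1-1, 9.46, 6.72 and 9.24 CPM in LSD1-GFP, 8.68, 19.9 and 7.53 CPM in LSD1-GR+DEX and 7.91, 4.58 and 5.58 CPM in wild type. The mutant libraries lay above all wild-type and LSD1-GFP libraries, and the difference from wild type was 3.86-fold (log2 1.95, SE 0.35, adjusted p = 0.00566). WRKY30 (AT5G24110), which responds to reactive oxygen, had 6.10, 7.24 and 5.08 CPM in lsd1-1, 2.31, 2.36 and 1.32 CPM in LSD1-GFP, 5.37, 9.23 and 5.44 CPM in LSD1-GR+DEX and 1.06, 1.44 and 1.23 CPM in wild type. It was 4.89-fold higher in lsd1-1 than in wild type, a log2 difference of 2.29 (SE 0.30, adjusted p = 0.000372), with no overlap. WRKY38 (AT5G22570), a negative regulator of basal defence that pairs with WRKY62, had 3.00, 1.3 and 3.21 CPM in lsd1-1, 0.101, 0.473 and 0.508 CPM in LSD1-GFP, 1.97, 0.0961 and 1.14 CPM in LSD1-GR+DEX and 0.964, 0.449 and 0.756 CPM in wild type. Its mutant values all exceeded the wild-type values, but at these low counts the log2 difference of 1.79 (SE 0.61, adjusted p = 0.0958) was not called, and with replicate number as a block it was (adjusted p = 0.0145).

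The widest differences lay in group IIc. WRKY59 (AT2G21900) had 8.82, 4.08 and 7.58 CPM in lsd1-1, 0.503, 0.378 and 0.305 CPM in LSD1-GFP, 0.268, 0.192 and 0.286 CPM in LSD1-GR+DEX and 0.0964, 0.0897 and 0.283 CPM in wild type, with 220 counts in the 3 lsd1-1 libraries and 5 in the 3 wild-type libraries. It was near the detection limit outside the mutant, and its log2 difference of 5.35 (SE 0.44, adjusted p = 9.55e-06) rests on those few wild-type counts and came to 6.03 without wild-type replicate 3. WRKY51 (AT5G64810), which represses jasmonate responses together with WRKY50 when salicylic acid is high, had 14.4, 10.7 and 12.9 CPM in lsd1-1, 2.41, 1.61 and 0.812 CPM in LSD1-GFP, 1.79, 2.31 and 2.00 CPM in LSD1-GR+DEX and 2.22, 0.897 and 0.945 CPM in wild type. The mutant level was 9.36-fold that of wild type, a log2 difference of 3.23 (SE 0.32, adjusted p = 3.68e-05), and the other 3 groups overlapped. WRKY50 itself stood at 1.65, 1.76 and 1.96 CPM in lsd1-1 and 2.02, 1.17 and 0.945 CPM in wild type, a log2 difference of 0.38 (SE 0.30, adjusted p = 0.547).

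WRKY75 (AT5G13080), known from phosphate starvation and leaf senescence, had 16.4, 12.5 and 13.1 CPM in lsd1-1, 3.52, 4.92 and 2.54 CPM in LSD1-GFP, 8.95, 13.3 and 9.15 CPM in LSD1-GR+DEX and 3.37, 2.96 and 2.27 CPM in wild type. Both lsd1-1 and LSD1-GR+DEX lay above all LSD1-GFP and wild-type libraries, and the mutant was 4.86-fold above wild type (log2 2.28, SE 0.24, adjusted p = 6.53e-05). WRKY8 (AT5G46350), a factor in salt tolerance and virus defence, had 5.42, 2.60 and 4.64 CPM in lsd1-1, 2.11, 1.89 and 0.406 CPM in LSD1-GFP, 2.77, 3.17 and 2.1 CPM in LSD1-GR+DEX and 1.45, 1.62 and 0.945 CPM in wild type. Its rise in the mutant was 3.13-fold, a log2 difference of 1.65 (SE 0.41, adjusted p = 0.0234), and the call was lost without lsd1-1 replicate 1 or 3 or wild-type replicate 1 or 3 (adjusted p 0.0731 to 0.0929). WRKY48 (AT5G49520), a stress-induced repressor of basal defence, had 12.8, 10.7 and 11 CPM in lsd1-1, 9.36, 10.2 and 6.30 CPM in LSD1-GFP, 6.98, 11.1 and 7.44 CPM in LSD1-GR+DEX and 5.88, 7.72 and 6.43 CPM in wild type. It rose 1.71-fold in lsd1-1 (log2 0.78, SE 0.21, adjusted p = 0.0311), and the call was lost without lsd1-1 replicate 1, 2 or 3 or wild-type replicate 1 or 3 (adjusted p 0.0608 to 0.133).

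In group IIa, whose members WRKY18, WRKY40 and WRKY60 bind one another and restrain immunity, 2 of 3 rose in lsd1-1. WRKY18 (AT4G31800) had 21.9, 26.4 and 22.6 CPM in lsd1-1, 33.1, 23.4 and 22.2 CPM in LSD1-GFP, 32.1, 47.5 and 31.0 CPM in LSD1-GR+DEX and 10.03, 12.9 and 7.75 CPM in wild type. Every library of the other 3 groups exceeded every wild-type library, and the mutant was 2.30-fold higher (log2 1.20, SE 0.22, adjusted p = 0.00609). WRKY40 (AT1G80840) had 32.5, 29.8 and 28.3 CPM in lsd1-1, 17.8, 25.3 and 13.7 CPM in LSD1-GFP, 15.7, 39.9 and 12.7 CPM in LSD1-GR+DEX and 8.49, 12.5 and 9.73 CPM in wild type. The mutant values lay 2.94-fold above wild type without overlap, a log2 difference of 1.56 (SE 0.40, adjusted p = 0.0416), but the call was lost on leaving out any 1 of the 6 libraries (adjusted p 0.0705 to 0.157). WRKY60 did not differ beyond its spread between lsd1-1 and wild type (log2 -0.05, adjusted p = 0.941).

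In group I, WRKY33 (AT2G38470), a substrate of MAP kinases that switches on camalexin synthesis, had 116, 116 and 103 CPM in lsd1-1, 67.0, 81.6 and 52.4 CPM in LSD1-GFP, 76.5, 159 and 82.2 CPM in LSD1-GR+DEX and 43.0, 41.9 and 35.4 CPM in wild type. The lsd1-1 libraries lay close together and above all wild-type and LSD1-GFP libraries, at 2.79-fold the wild-type level (log2 1.48, SE 0.26, adjusted p = 0.00702). WRKY3 (AT2G03340), which acts in resistance to necrotrophic fungi, had 17.8, 18.9 and 16.9 CPM in lsd1-1, 23.5, 20.2 and 19.6 CPM in LSD1-GFP, 18.3, 19.7 and 16.1 CPM in LSD1-GR+DEX and 22.4, 23.7 and 22.8 CPM in wild type. It was the single member that fell in the mutant, by 1.28-fold (log2 -0.36, SE 0.10, adjusted p = 0.0438), and the call was lost without any 1 of the 6 libraries (adjusted p 0.0692 to 0.147). The remaining 10 of the 14 calls, for WRKY18, WRKY30, WRKY33, WRKY46, WRKY51, WRKY53, WRKY54, WRKY59, WRKY70 and WRKY75, held whichever library was left out.

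**Figure D3:**
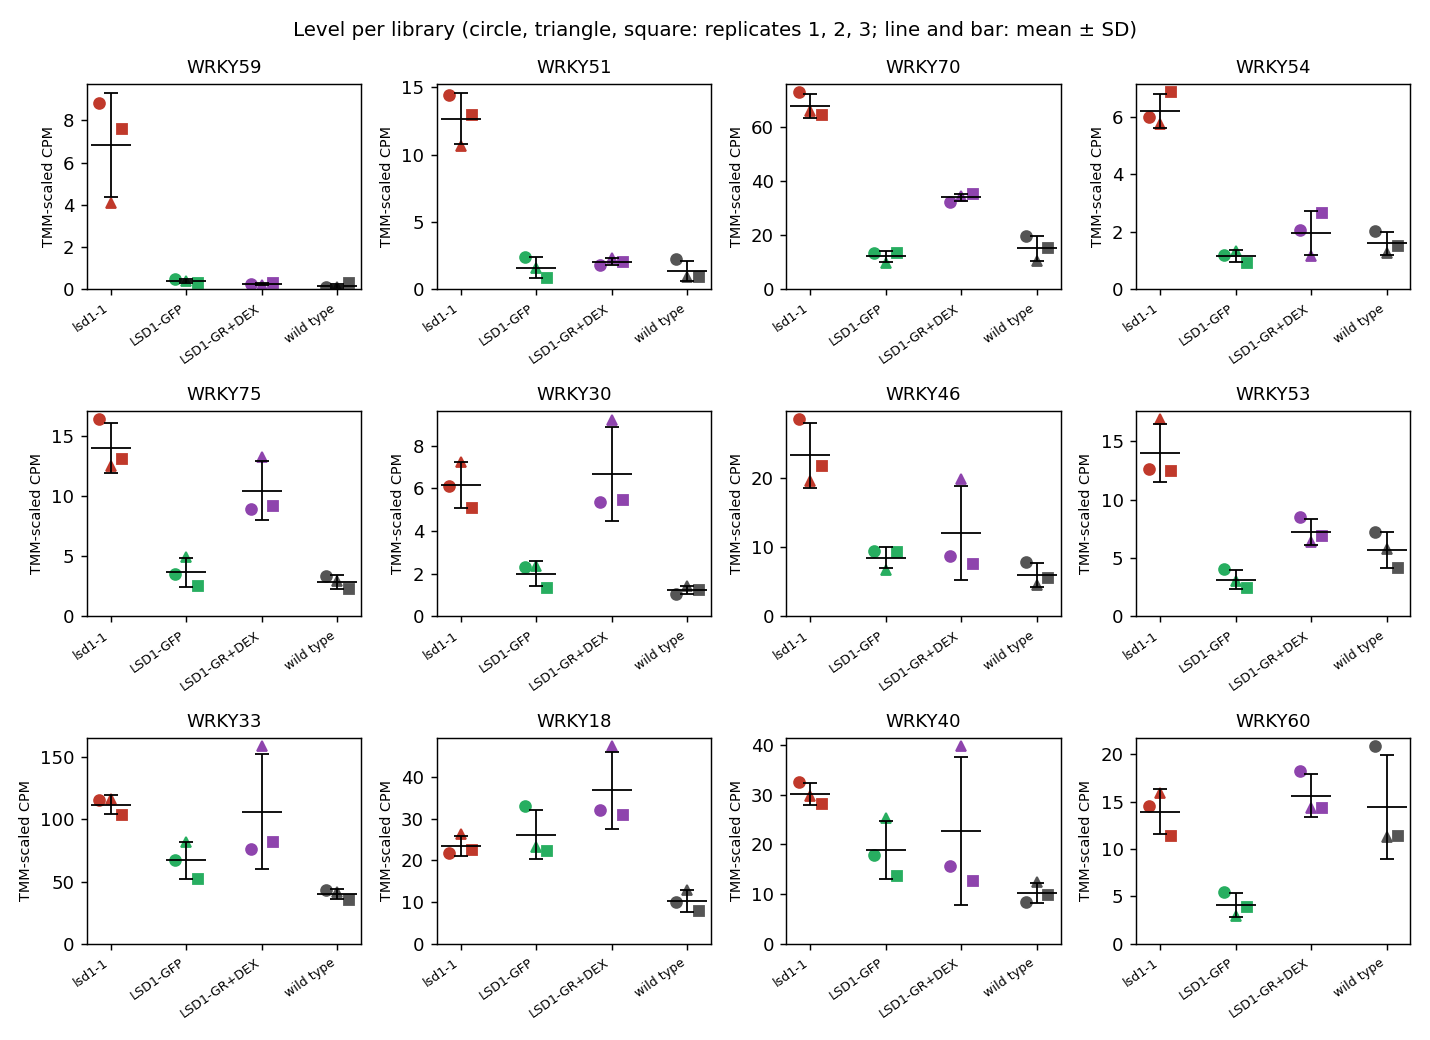
TMM-scaled CPM of 12 members in each of the 12 libraries, with 1 panel a member, the group on the x axis, a symbol per replicate and the mean ± SD as a line and bar. WRKY59, WRKY51 and WRKY54 are highest in lsd1-1, WRKY70 and WRKY75 are high in lsd1-1 and LSD1-GR+DEX, WRKY60 is low in LSD1-GFP, and the triangle of LSD1-GR+DEX is high for WRKY33, WRKY40 and WRKY46.

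Set against the same wild-type libraries, LSD1-GFP asks what a surplus of LSD1 without treatment goes with. In these rosettes 8 of 55 members rose and 4 fell, which is 21.8% of the members against 29.1% of all genes tested, of which 15.5% rose and 13.6% fell. Without regard to the test, 13 members lay wholly above wild type and 6 wholly below, where 22.3% and 20.3% of all genes did. The median log2 difference was 0.18 over the members and 0.00 over all genes. No member of group IIc was called, though WRKY57 was with replicate number as a block (adjusted p = 0.0194), and none of the group III members that rose in lsd1-1 rose here. In the same comparison 4 of 5 leaf markers rose, and of the handling and time markers HSP70 and GI rose and CCA1 fell. Without wild-type replicate 1 the leaf calls came down to RBCS1A and LHCB1.3, and CCA1 was not called. CCA1 was also lost without LSD1-GFP replicate 3 or wild-type replicate 2. The root marker IRT1 rose (log2 0.95, SE 0.30, adjusted p = 0.035), a call lost without any 1 of the 6 libraries, and the flower marker AP1 fell (log2 -1.32, SE 0.43, adjusted p = 0.0337), a call lost without LSD1-GFP replicate 1 or 2 or wild-type replicate 2 or 3 (adjusted p 0.0629 to 0.138). The part of these markers in the result was not tested.

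In group IIa 1 member rose and 1 fell in LSD1-GFP. WRKY18 rose 2.56-fold over wild type, a log2 difference of 1.35 (SE 0.22, adjusted p = 0.000767). WRKY60 (AT2G25000) had 14.5, 16.0 and 11.3 CPM in lsd1-1, 5.43, 2.93 and 3.86 CPM in LSD1-GFP, 18.3, 14.3 and 14.3 CPM in LSD1-GR+DEX and 20.8, 11.2 and 11.3 CPM in wild type. All 3 LSD1-GFP libraries lay below every library of the other groups, at 3.55-fold under wild type (log2 -1.83, SE 0.28, adjusted p = 0.000417), which was the largest fall of a member in this comparison. WRKY40 was 1.85-fold higher without overlap but was not called (log2 0.89, SE 0.41, adjusted p = 0.139), and with only the 6 libraries of both groups in the fit it was (adjusted p = 0.0171). WRKY33, at 1.67-fold, also missed the threshold (log2 0.74, SE 0.27, adjusted p = 0.0592). With replicate number as a block its adjusted p was 0.0372, with DESeq2 0.00973, and without LSD1-GFP replicate 3 it was 0.0483.

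WRKY53, which was higher in lsd1-1, was 1.80-fold lower in LSD1-GFP than in wild type, a log2 difference of -0.85 (SE 0.25, adjusted p = 0.0191). The call was lost without LSD1-GFP replicate 2 or 3 or wild-type replicate 1 (adjusted p 0.063 to 0.0853). WRKY47 (AT4G01720) had 15.4, 14.5 and 16.1 CPM in lsd1-1, 12.5, 11.9 and 9.55 CPM in LSD1-GFP, 14.9, 14.1 and 13.6 CPM in LSD1-GR+DEX and 20.3, 17.7 and 16.3 CPM in wild type. The LSD1-GFP libraries were the lowest of the 12, 1.60-fold under wild type (log2 -0.68, SE 0.12, adjusted p = 0.00102). WRKY26 (AT5G07100), which acts in heat tolerance with WRKY25 and WRKY33, had 26.2, 27.2 and 17.8 CPM in lsd1-1, 21.2, 15.4 and 14.3 CPM in LSD1-GFP, 15.9, 18.8 and 11.2 CPM in LSD1-GR+DEX and 29.4, 26.4 and 24.3 CPM in wild type. It fell 1.57-fold in LSD1-GFP (log2 -0.65, SE 0.20, adjusted p = 0.0301), and the call was lost without LSD1-GFP replicate 2 or 3 or wild-type replicate 1 or 2 (adjusted p 0.0641 to 0.105).

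Groups IId and IIe supplied several of the rises in LSD1-GFP. WRKY17 (AT2G24570), which restrains basal resistance together with WRKY11 and binds calmodulin like other group IId members, had 17.6, 16.1 and 22.2 CPM in lsd1-1, 22.6, 23.1 and 25.4 CPM in LSD1-GFP, 30.1, 21.4 and 32.2 CPM in LSD1-GR+DEX and 15.8, 14.7 and 16.1 CPM in wild type. It was 1.53-fold higher in LSD1-GFP than in wild type (log2 0.61, SE 0.15, adjusted p = 0.00723). WRKY27 (AT5G52830), known from bacterial wilt disease, had 5.62, 5.57 and 4.37 CPM in lsd1-1, 6.44, 5.96 and 8.33 CPM in LSD1-GFP, 6.09, 5.29 and 6.20 CPM in LSD1-GR+DEX and 3.09, 4.04 and 3.40 CPM in wild type. The wild-type libraries were the lowest of the 12, and LSD1-GFP was 1.96-fold above them (log2 0.97, SE 0.19, adjusted p = 0.00159). WRKY15 (AT2G23320), known from salt and mitochondrial stress responses, had 41.3, 46.3 and 39.4 CPM in lsd1-1, 42.0, 52.8 and 42.9 CPM in LSD1-GFP, 48.2, 59.2 and 40.1 CPM in LSD1-GR+DEX and 35.4, 34.6 and 33.3 CPM in wild type. Its rise of 1.33-fold (log2 0.41, SE 0.13, adjusted p = 0.0265) was no longer called without LSD1-GFP replicate 2 or wild-type replicate 1, 2 or 3 (adjusted p 0.0639 to 0.13). WRKY7 (AT4G24240) had 16.4, 20.9 and 20.2 CPM in lsd1-1, 22.8, 24.9 and 26.4 CPM in LSD1-GFP, 20.9, 19.9 and 20.9 CPM in LSD1-GR+DEX and 20.9, 19.7 and 19.1 CPM in wild type. It rose 1.24-fold (log2 0.31, SE 0.10, adjusted p = 0.0341), and the call was lost without LSD1-GFP replicate 2 or 3 or wild-type replicate 1, 2 or 3 (adjusted p 0.0597 to 0.113).

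From group I, WRKY1 (AT2G04880, ZAP1) had 35.2, 37.4 and 35.4 CPM in lsd1-1, 47.4, 48.7 and 45.0 CPM in LSD1-GFP, 41.3, 46.5 and 37.7 CPM in LSD1-GR+DEX and 36.8, 32.0 and 36.2 CPM in wild type. The LSD1-GFP values were 1.34-fold those of wild type with no overlap (log2 0.43, SE 0.09, adjusted p = 0.00248). WRKY2 (AT5G56270), a factor of seed germination and pollen development, had 15.0, 13.1 and 15.3 CPM in lsd1-1, 17.8, 17.0 and 18.9 CPM in LSD1-GFP, 10.7, 9.52 and 11.6 CPM in LSD1-GR+DEX and 15.0, 13.3 and 13.6 CPM in wild type. It rose 1.28-fold in LSD1-GFP (log2 0.36, SE 0.11, adjusted p = 0.0256), the opposite of its direction in LSD1-GR+DEX, and the call was lost without LSD1-GFP replicate 1 or 3 or wild-type replicate 2 or 3 (adjusted p 0.0581 to 0.0874). WRKY20 (AT4G26640) had 27, 27.6 and 33.4 CPM in lsd1-1, 39.4, 34.1 and 44.6 CPM in LSD1-GFP, 32.5, 33.3 and 33.8 CPM in LSD1-GR+DEX and 26.7, 31.9 and 32.4 CPM in wild type. It rose 1.3-fold (log2 0.37, SE 0.11, adjusted p = 0.0228), and the call was lost without LSD1-GFP replicate 1 or 3 or wild-type replicate 1 (adjusted p 0.0562 to 0.129). The other 6 of the 12 calls in LSD1-GFP, for WRKY1, WRKY17, WRKY18, WRKY27, WRKY47 and WRKY60, held without any 1 library.

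**Figure D4:**
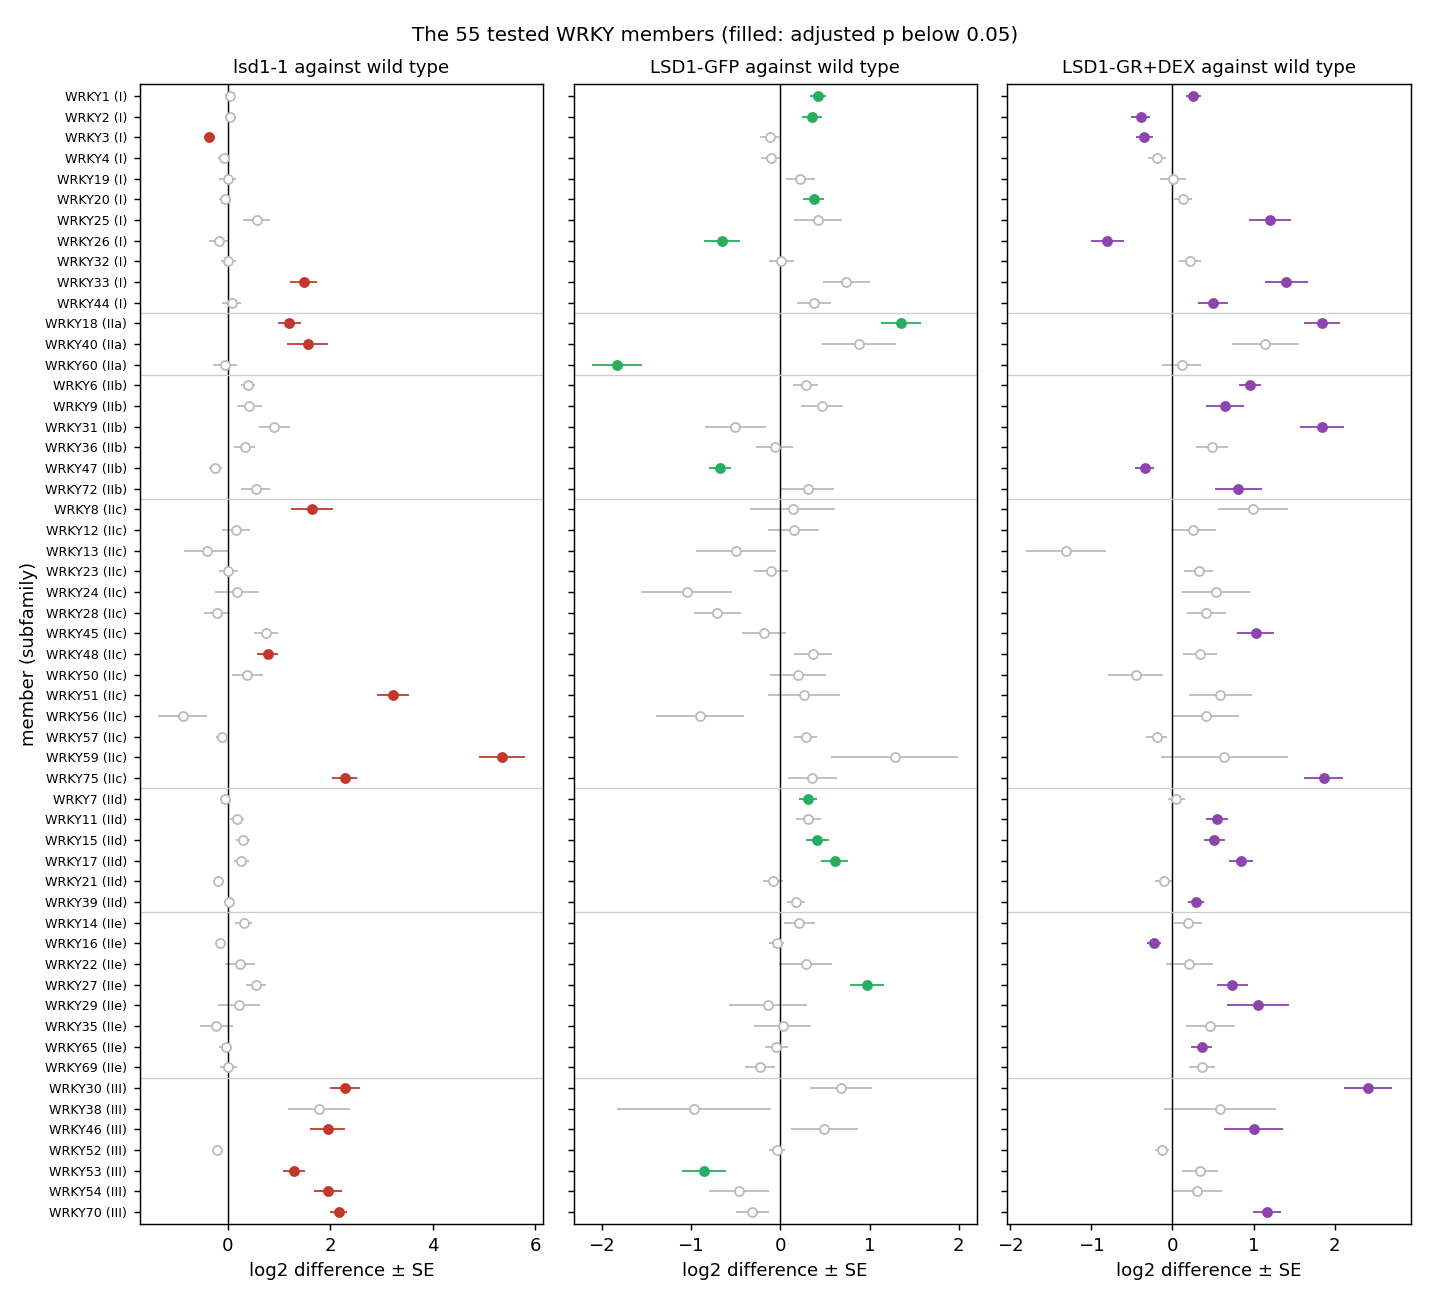
Log2 differences ± SE of the 55 tested members against wild type, with lsd1-1 left, LSD1-GFP in the middle and LSD1-GR+DEX right, and members sorted by subfamily down the page. Filled points have an adjusted p below 0.05. The 14 filled points of lsd1-1 lie mostly in groups IIc and III, the 12 of LSD1-GFP hold none of group IIc in this fit without the block, and the 26 of LSD1-GR+DEX come from all 7 subfamilies.

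LSD1-GR+DEX combined surplus LSD1 with dexamethasone and transfer. Of the comparisons with wild type it had the most called members, and also the most called genes of any kind. Against wild type 21 of 55 members rose and 5 fell, which is 47.3% of the members against 36% of all genes tested, of which 19.3% rose and 16.7% fell. A total of 26 members lay wholly above wild type and 6 wholly below, where 24.2% and 22.8% of all genes did. The median log2 difference was 0.41 over the members and 0.01 over all genes. The rises spread over all 7 subfamilies, with 4 of 11 in group I, 1 of 3 in IIa, 4 of 6 in IIb, 2 of 14 in IIc, 4 of 6 in IId, 3 of 8 in IIe and 3 of 7 in III. The count of 26 was 16 without wild-type replicate 1 and 17 without wild-type replicate 2. In the same comparison 5 of 10 tested root markers rose, with none of the 12 listed at 0, and 3 of 5 leaf markers fell, and of the 7 markers of handling and time of day 5 rose and 1 fell. Of the 5 root calls, 3 (RHD2, PYK10 and IRT1) held without any 1 library, and those of COBL9 and EXPA7 were both lost without LSD1-GR+DEX replicate 1 or 3 or wild-type replicate 1 or 2. Of the 5 handling and time calls that were higher, 3 (HSP70, GI and TCH3) held throughout, and those of ZAT10 and ZAT12 were both lost without wild-type replicate 1 or 3. Of the 3 leaf calls, 2 (LHCB1.3 and LHCB2.1) held throughout, and that of RBCS1A was lost without LSD1-GR+DEX replicate 1 or 3 or wild-type replicate 3 (adjusted p 0.0686 to 0.12). The part of these markers in the results was not tested.

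Some of these rises were in genes that were also high in lsd1-1, a comparison that shares the wild-type libraries. WRKY30 was 5.31-fold above wild type (log2 2.41, SE 0.30, adjusted p = 3.58e-05), WRKY75 3.63-fold (log2 1.86, SE 0.24, adjusted p = 5.89e-05) and WRKY18 3.59-fold (log2 1.84, SE 0.22, adjusted p = 5.57e-05). For WRKY70 the rise was 2.25-fold (log2 1.17, SE 0.17, adjusted p = 0.00019) and for WRKY33 2.64-fold (log2 1.40, SE 0.26, adjusted p = 0.00217). In all 5 the LSD1-GR+DEX libraries lay wholly above wild type. WRKY51, WRKY54 and WRKY59 overlapped wild type here, with adjusted p from 0.252 to 0.555.

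Group IIb rose in LSD1-GR+DEX with 4 of 6 members, while none of its members was called in lsd1-1 without the block. WRKY31 (AT4G22070) had 3.39, 2.13 and 3.48 CPM in lsd1-1, 0.805, 1.32 and 1.22 CPM in LSD1-GFP, 6.44, 4.13 and 6.58 CPM in LSD1-GR+DEX and 1.74, 1.79 and 1.23 CPM in wild type. The LSD1-GR+DEX libraries were the highest of the 12, 3.59-fold over wild type (log2 1.84, SE 0.27, adjusted p = 0.000164). In lsd1-1 WRKY31 was 1.88-fold above wild type without being called (adjusted p = 0.0741, and 0.0424 with replicate number as a block). WRKY6 (AT1G62300), a regulator of senescence and of phosphate export, had 28.4, 35.9 and 26.2 CPM in lsd1-1, 27, 31.3 and 25.4 CPM in LSD1-GFP, 40.3, 50.9 and 41.7 CPM in LSD1-GR+DEX and 24.8, 24.1 and 19.7 CPM in wild type. Again LSD1-GR+DEX was highest, 1.93-fold over wild type (log2 0.95, SE 0.14, adjusted p = 0.000124). In lsd1-1 WRKY6 was 1.32-fold above wild type (adjusted p = 0.0985, and 0.00509 with the block), and in LSD1-GFP 1.22-fold (adjusted p = 0.139, and 0.0189 with the block).

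WRKY72, a factor of basal defence, and WRKY9 made up the rest of the rises in group IIb. WRKY72 was 1.76-fold higher in LSD1-GR+DEX (log2 0.81, SE 0.28, adjusted p = 0.0377), a call lost without LSD1-GR+DEX replicate 1 or 3 or wild-type replicate 2 or 3 (adjusted p 0.0764 to 0.131). WRKY9 was 1.57-fold higher (log2 0.65, SE 0.24, adjusted p = 0.0438), a call lost without LSD1-GR+DEX replicate 1 or 3 or wild-type replicate 1 or 3 (adjusted p 0.0908 to 0.167). WRKY47 fell 1.27-fold (log2 -0.34, SE 0.12, adjusted p = 0.0372), and its call was lost without LSD1-GR+DEX replicate 1, 2 or 3 or wild-type replicate 1 or 2 (adjusted p 0.0553 to 0.136).

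In group IIc, WRKY45 (AT3G01970), an activator of phosphate uptake, had 20.1, 21.1 and 15.5 CPM in lsd1-1, 10.9, 11.4 and 7.52 CPM in LSD1-GFP, 21.3, 31.4 and 16.3 CPM in LSD1-GR+DEX and 11.7, 12.7 and 9.45 CPM in wild type. It was 2.04-fold higher in LSD1-GR+DEX than in wild type (log2 1.03, SE 0.23, adjusted p = 0.00408) with no overlap. In lsd1-1 it was 1.67-fold higher than in wild type (adjusted p = 0.072, and 0.000333 with replicate number as a block). WRKY57 (AT1G69310), known from drought tolerance, had 30.5, 29.8 and 26.2 CPM in lsd1-1, 41.6, 39.5 and 31.9 CPM in LSD1-GFP, 25.1, 30.3 and 25.7 CPM in LSD1-GR+DEX and 28.9, 36.7 and 27 CPM in wild type, and no comparison with wild type was called (in LSD1-GFP the adjusted p was 0.112 without the block). WRKY28 (AT4G18170), which binds the promoter of the salicylic acid gene ICS1, had 4.46, 7.33 and 4.01 CPM in lsd1-1, 4.73, 2.36 and 4.16 CPM in LSD1-GFP, 7.16, 9.42 and 7.82 CPM in LSD1-GR+DEX and 6.75, 5.47 and 6.05 CPM in wild type, with its lowest value in LSD1-GFP replicate 2. Both were called in the joint test and differed between LSD1-GR+DEX and LSD1-GFP.

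The 4 members of group IId that rose in LSD1-GR+DEX did so by less than 2-fold. WRKY17 was 1.80-fold higher (log2 0.85, SE 0.15, adjusted p = 0.000585), WRKY15 1.43-fold (log2 0.51, SE 0.13, adjusted p = 0.00668) and WRKY39 1.22-fold (log2 0.29, SE 0.10, adjusted p = 0.0377). WRKY11 (AT4G31550), which acts with WRKY17, had 17.6, 24.3 and 18.8 CPM in lsd1-1, 21.6, 23.9 and 21.0 CPM in LSD1-GFP, 23.8, 28.5 and 25.7 CPM in LSD1-GR+DEX and 21.0, 15.8 and 16.7 CPM in wild type. Its difference was 1.46-fold (log2 0.55, SE 0.14, adjusted p = 0.00647). Of these 4, WRKY39 lost its call without LSD1-GR+DEX replicate 1 or 3 or wild-type replicate 1 or 2 (adjusted p 0.0879 to 0.132).

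In group IIe 3 of 8 members rose and 1 fell. WRKY27 was 1.66-fold higher in LSD1-GR+DEX (log2 0.74, SE 0.19, adjusted p = 0.00823). WRKY29, a factor downstream of the flagellin receptor, had 3.40, 2.69 and 2.67 CPM in LSD1-GR+DEX and 1.83, 1.08 and 1.32 CPM in wild type. The log2 difference was 1.05 (SE 0.39, adjusted p = 0.0461), and the call was lost without any 1 of the 6 libraries (adjusted p 0.0525 to 0.143). WRKY65 (AT1G29280) had 21.0, 16.7 and 18.8 CPM in lsd1-1, 17.3, 21.1 and 18.0 CPM in LSD1-GFP, 26.8, 22.8 and 25.1 CPM in LSD1-GR+DEX and 20.7, 21.4 and 15.9 CPM in wild type. Its rise was 1.29-fold (log2 0.36, SE 0.13, adjusted p = 0.0402), a call lost without LSD1-GR+DEX replicate 1 or 3 or wild-type replicate 1 or 3 (adjusted p 0.0594 to 0.157). WRKY69 (AT3G58710) had 6.97, 7.79 and 8.12 CPM in lsd1-1, 5.84, 7.09 and 6.40 CPM in LSD1-GFP, 10.3, 7.79 and 11.1 CPM in LSD1-GR+DEX and 8.0, 8.26 and 6.43 CPM in wild type, and its difference from wild type was not called (log2 0.36, SE 0.16, adjusted p = 0.0944). WRKY16 (TTR1), another receptor with a WRKY domain, fell 1.17-fold (log2 -0.23, SE 0.09, adjusted p = 0.0479), a call lost without LSD1-GR+DEX replicate 1 or 3 or wild-type replicate 1, 2 or 3 (adjusted p 0.066 to 0.159).

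Group I split in LSD1-GR+DEX, with 4 members higher and 3 lower. WRKY25 (AT2G30250), which acts in heat tolerance, had 28.9, 29.6 and 26.9 CPM in lsd1-1, 24.8, 31.2 and 21.4 CPM in LSD1-GFP, 35.3, 65.5 and 32.3 CPM in LSD1-GR+DEX and 22.7, 20.1 and 14.9 CPM in wild type. It was 2.31-fold higher than in wild type (log2 1.20, SE 0.26, adjusted p = 0.00426) without overlap. WRKY44 (TTG2), known from trichomes and seed coats, was 1.41-fold higher (log2 0.50, SE 0.19, adjusted p = 0.0495), a call lost without any 1 of the 6 libraries (adjusted p 0.0596 to 0.162). WRKY1 was 1.20-fold higher (log2 0.26, SE 0.09, adjusted p = 0.0354), a call lost without LSD1-GR+DEX replicate 1 or 2 or wild-type replicate 1 or 2 (adjusted p 0.0633 to 0.213).

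The 3 lower members of group I were WRKY26, WRKY2 and WRKY3. WRKY26 fell 1.74-fold (log2 -0.80, SE 0.21, adjusted p = 0.00904), opposite to its relatives WRKY25 and WRKY33, and kept its call without any 1 library. WRKY2 fell 1.31-fold (log2 -0.39, SE 0.12, adjusted p = 0.0159), and this call did not hold when wild-type replicate 1 was left out (adjusted p = 0.0544). WRKY3 fell 1.27-fold (log2 -0.35, SE 0.10, adjusted p = 0.0166), a call lost without LSD1-GR+DEX replicate 3 or wild-type replicate 2 (adjusted p 0.0538 to 0.0771).

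Replicate 2 of LSD1-GR+DEX stood apart from the other libraries of its group for several members. WRKY33 was at 159 CPM in it, against 76.5 and 82.2 CPM in replicates 1 and 3. The same library held 39.9 CPM of WRKY40 against 15.7 and 12.7, and 19.9 CPM of WRKY46 against 8.68 and 7.53. Over all 55 members, 7 (12.7%) were more than 1.5-fold above the mean of the other 2 libraries in it, against 4.76% of all genes. The same count for replicate 2 was 1 in lsd1-1 (1.82% against 2.86% of all genes), 5 in LSD1-GFP (9.09% against 3.23%) and 1 in wild type (1.82% against 2.37%). In LSD1-GR+DEX replicate 2 another 5 members, WRKY14, WRKY31, WRKY35, WRKY38 and WRKY54, were more than 1.5-fold below, which is 9.09% against 5.43% of all genes.

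Touch, heat and rapid stress genes were also higher in that library than in replicates 1 and 3. HSP70, a heat-shock chaperone, was at 1693, 3422 and 1706 CPM in LSD1-GR+DEX and 55.5, 180.5 and 65.9 CPM in wild type. TCH4, a touch gene, was at 24.6, 72.5 and 20.1 CPM in LSD1-GR+DEX and 22.4, 29.9 and 22.5 CPM in wild type. A higher HSP70 in replicate 2 was not particular to LSD1-GR+DEX: on the log2(CPM + 0.5) scale its difference from the mean of replicates 1 and 3 was 1.47 in lsd1-1, 0.63 in LSD1-GFP, 1.01 in LSD1-GR+DEX and 1.57 in wild type. In the same order of groups it was -0.28, 1.29, 1.68 and 0.41 for TCH4 and 0.29, 0.58, 1.25 and 0.21 for TCH3. For ZAT12 it was -0.28, 0.67, 1.19 and 0.70, and for ZAT10 -0.20, 0.03, 1.63 and -0.19. In lsd1-1 and wild type the same difference was 0.09 and 0.10 for WRKY33, -0.03 and 0.44 for WRKY40, and -0.34 and -0.49 for WRKY46. In LSD1-GFP it was 0.46 for WRKY33, 0.68 for WRKY40 and -0.45 for WRKY46, and in LSD1-GR+DEX 1.00, 1.47 and 1.25. ZAT10, a rapid stress regulator, was at 12.2, 38.5 and 12.1 CPM in LSD1-GR+DEX and 8.39, 7.36 and 8.60 CPM in wild type. The root hair gene PRP3 went the other way, with 37.9, 11.7 and 44.1 CPM in LSD1-GR+DEX and 15.8, 14.7 and 30.1 CPM in wild type. The part of these genes in the WRKY results was not tested.

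Without LSD1-GR+DEX replicate 2, 19 members rose and 4 fell against wild type. WRKY33 was then 1.95-fold higher than in wild type (adjusted p = 0.000206) and WRKY30 4.24-fold (adjusted p = 5.73e-05). WRKY25 came to 1.73-fold (adjusted p = 0.00182). WRKY46, called with all libraries at 2.00-fold (log2 1.00, SE 0.36, adjusted p = 0.0492), was 1.33-fold higher and not called (adjusted p = 0.212). Its call was also lost without wild-type replicate 1, 2 or 3 (adjusted p 0.0532 to 0.147). WRKY40, not called with all libraries at 2.21-fold (log2 1.15, SE 0.41, adjusted p = 0.051), was 1.36-fold higher (adjusted p = 0.154), while without LSD1-GR+DEX replicate 1 or 3 it was called (adjusted p = 0.0351 and 0.0156).

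**Figure D5:**
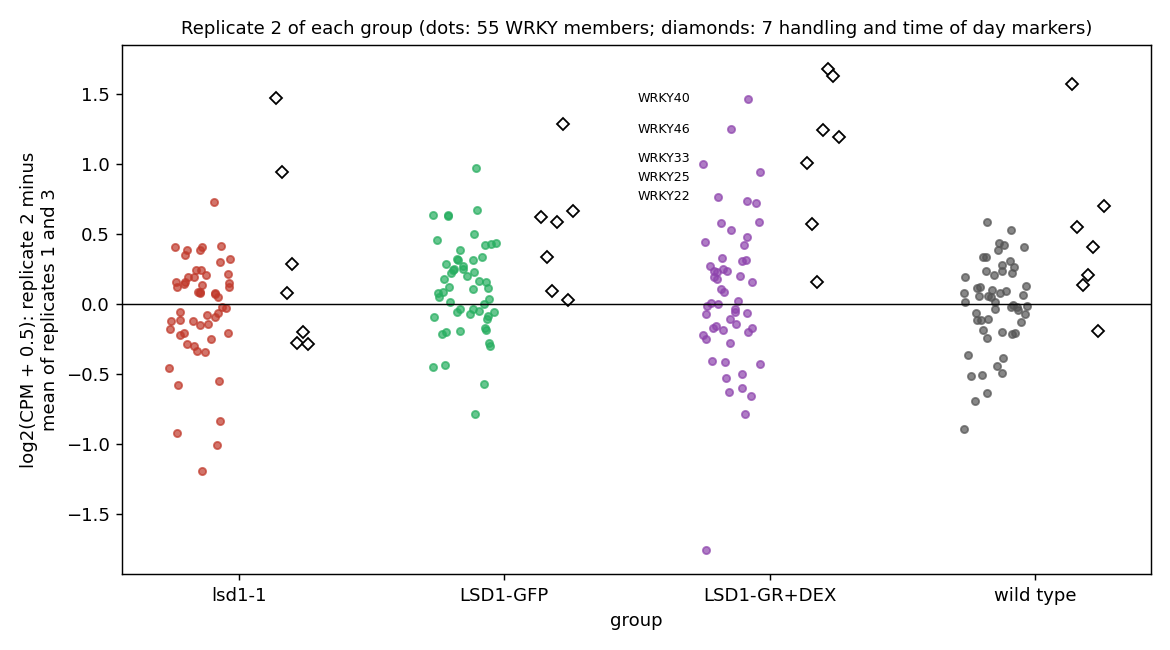
Difference on the log2(CPM + 0.5) scale between replicate 2 and the mean of replicates 1 and 3, by group, for the 55 tested members (dots) and the 7 markers of handling and time of day (diamonds). In LSD1-GR+DEX WRKY40, WRKY46, WRKY33, WRKY25 and WRKY22 lie highest and the lowest dot is WRKY38.

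The mutant and the untreated overexpressor, the extremes of LSD1 level, were also set against each other, using lsd1-1 over LSD1-GFP. In this pair 14 of 55 members rose and 4 fell, where 26.5% of all genes were called, with 12.8% higher and 13.6% lower. The replicates did not overlap for 18 higher and 9 lower members, against 20.4% and 21.1% of all genes. Group III was higher in lsd1-1 with 6 of 7 members, all but WRKY52. WRKY53 was 4.41-fold higher (log2 2.14, SE 0.23, adjusted p = 1.94e-05), and WRKY70 5.57-fold (log2 2.48, SE 0.17, adjusted p = 1.15e-06). WRKY38 was 6.73-fold higher (log2 2.75, SE 0.70, adjusted p = 0.0107). WRKY60 was 3.42-fold higher (log2 1.77, SE 0.28, adjusted p = 0.000557), and WRKY31 2.66-fold (log2 1.41, SE 0.31, adjusted p = 0.0043). WRKY1, WRKY7, WRKY20 and WRKY57 were lower in lsd1-1, by 1.31-fold for WRKY1 (log2 -0.39, SE 0.09, adjusted p = 0.0051). The call for WRKY7 was lost without lsd1-1 replicate 1 or LSD1-GFP replicate 3 (adjusted p 0.0633 to 0.102), for WRKY20 without lsd1-1 replicate 1 or 2 or LSD1-GFP replicate 3 (adjusted p 0.05 to 0.0816) and for WRKY57 without lsd1-1 replicate 1, 2 or 3 or LSD1-GFP replicate 1 or 2 (adjusted p 0.0681 to 0.148). The calls for WRKY8 and WRKY47, both higher, were lost without lsd1-1 replicate 1 (adjusted p = 0.0623) and without lsd1-1 replicate 3 or LSD1-GFP replicate 3 (adjusted p 0.0655 to 0.0777). WRKY33 was 1.67-fold higher without overlap (log2 0.74, SE 0.26, adjusted p = 0.0573, and adjusted p = 0.0258 with replicate number as a block). The block also brought in WRKY2, WRKY17, WRKY19 and WRKY26 (adjusted p = 0.0245, 0.0168, 0.0297 and 0.00676).

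LSD1-GR+DEX against LSD1-GFP compares 2 lines with surplus LSD1 that differ in the fusion, the LSD1 level, the steroid and the transfer, which cannot be told apart. Here 16 of 55 members rose and 2 fell, where 32.8% of all genes were called, with 16.5% higher and 16.2% lower. The rises included WRKY31 at 5.07-fold (log2 2.34, SE 0.29, adjusted p = 3.92e-05), WRKY60 at 3.84-fold (log2 1.94, SE 0.28, adjusted p = 0.000189) and WRKY30 at 3.31-fold (log2 1.73, SE 0.28, adjusted p = 0.00031). WRKY75 and WRKY70 were 2.83-fold and 2.79-fold higher (adjusted p = 0.000255 and 3.71e-05). WRKY53 was 2.29-fold higher (log2 1.19, SE 0.24, adjusted p = 0.00177). WRKY2 was 1.68-fold lower (log2 -0.75, SE 0.11, adjusted p = 0.000188), and WRKY57 was the other member that fell, a call lost without LSD1-GR+DEX replicate 1 or LSD1-GFP replicate 1 (adjusted p 0.0506 to 0.0556). WRKY24, called at log2 1.58 (SE 0.48, adjusted p = 0.0204), was at log2 2.51 without LSD1-GFP replicate 2, and its call was lost without LSD1-GR+DEX replicate 3 or LSD1-GFP replicate 1 or 3 (adjusted p 0.0602 to 0.0756). Of the 18 calls, 10 held without any 1 library. WRKY18, which rose over wild type in both lines, differed by 1.40-fold between them with overlapping values (log2 0.49, SE 0.20, adjusted p = 0.0825). The count of 18 called members was 11 without LSD1-GFP replicate 1.

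The mutant and LSD1-GR+DEX, both with many raised members, were compared directly as lsd1-1 over LSD1-GR+DEX. In this pair 6 members rose and 5 fell, where 17.8% of all genes were called, with 8.4% higher and 9.4% lower. The members that rose were WRKY51, WRKY53, WRKY54, WRKY59, WRKY70 and WRKY2, and the first 5 kept their calls without any 1 library. WRKY70 was 2.00-fold higher in lsd1-1 (log2 1.00, SE 0.16, adjusted p = 0.000873), WRKY54 3.15-fold (log2 1.66, SE 0.26, adjusted p = 0.00068) and WRKY51 6.21-fold (log2 2.64, SE 0.30, adjusted p = 6.11e-05). WRKY6, WRKY17, WRKY18, WRKY31 and WRKY65 were lower in lsd1-1, with WRKY31 at 1.90-fold under LSD1-GR+DEX (log2 -0.93, SE 0.25, adjusted p = 0.0197). The WRKY31 call was lost without lsd1-1 replicate 2 or LSD1-GR+DEX replicate 1 or 3 (adjusted p 0.074 to 0.0805), that of WRKY6 without lsd1-1 replicate 1 or 3 (adjusted p 0.0566 to 0.0624), that of WRKY18 without lsd1-1 replicate 1, 2 or 3 or LSD1-GR+DEX replicate 1 or 2 (adjusted p 0.0553 to 0.168) and that of WRKY2 without lsd1-1 replicate 3 (adjusted p = 0.0659). For WRKY17 it was lost without lsd1-1 replicate 1 or 2 or LSD1-GR+DEX replicate 1 or 3 (adjusted p 0.0538 to 0.0656), and for WRKY65 without lsd1-1 replicate 1, 2 or 3 or LSD1-GR+DEX replicate 1 or 3 (adjusted p 0.053 to 0.151). WRKY30 and WRKY75 overlapped between these groups, at log2 differences of -0.12 (SE 0.24, adjusted p = 0.775) and 0.42 (SE 0.21, adjusted p = 0.178). For WRKY33 the log2 difference was 0.08 (SE 0.25, adjusted p = 0.865) with all libraries and 0.53 without LSD1-GR+DEX replicate 2, where it was called (adjusted p = 0.0199). For WRKY40 the log2 difference of 0.41 (SE 0.37, adjusted p = 0.496) came to 1.12 without that library (adjusted p = 0.00313). The count of 11 was 7 without lsd1-1 replicate 1 or LSD1-GR+DEX replicate 1.

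Levels can be ranked between members once divided by transcript length, as CPM per kilobase. In lsd1-1 the order was led by WRKY33 with 55.2 ± 3.62 and WRKY70 with 46.0 ± 3.02, ahead of WRKY15 with 33.0 ± 2.77 (mean ± SD, n = 3 for this and the other groups). In LSD1-GFP WRKY15 led with 35.7 ± 4.68, and WRKY33 followed within its spread with 33.0 ± 7.21. In LSD1-GR+DEX WRKY33 came first with 52.3 ± 22.8, a wide spread that reaches the level of WRKY15 at 38.3 ± 7.45. In wild type WRKY15 led with 26.8 ± 0.840, followed by WRKY26 with 23.0 ± 2.22, WRKY39 with 20.2 ± 1.64 and WRKY33 with 19.8 ± 2.02. The ranges of mean ± SD of the last 3 overlapped, and only WRKY39 and WRKY33 had means within each other's range. WRKY70 ranked 2 of the 60 members in lsd1-1 and 16 in wild type. WRKY59 ranked 29 in lsd1-1, at 7.04 ± 2.53 CPM per kilobase, and 58 in wild type, so the member with the widest difference stood in the middle of the 60 members in the mutant.

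Genes around the family were read from 3 lists of known partners. The lists were chosen with earlier results of these data known, so their shares beside those of all genes are description only. Of 10 kinase genes in the MAP kinase modules that phosphorylate WRKY factors, 4 rose and 0 fell in lsd1-1, which is 40.0% against 8.3% of all genes tested. The share called was 20.0% against 29.1% of all genes in LSD1-GFP, and in LSD1-GR+DEX 1 of the 10 was called against 36% of all genes. The median log2 difference of the list was 0.44 in lsd1-1, -0.07 in LSD1-GFP and 0.13 in LSD1-GR+DEX, where the medians of all genes were -0.01, 0.00 and 0.01. The 4 were MKK1, MKK2, MKK4 and MPK11, at log2 differences of 0.69 (SE 0.14, adjusted p = 0.00912), 0.46 (SE 0.08, adjusted p = 0.00239), 0.60 (SE 0.12, adjusted p = 0.00565) and 2.30 (SE 0.55, adjusted p = 0.0293). The kinase MPK11 was at 22.6, 18.6 and 19.4 CPM in lsd1-1 and 3.66, 5.29 and 3.31 CPM in wild type, and its call was lost without any 1 of the 6 libraries (adjusted p 0.0592 to 0.121). In LSD1-GFP MKK2 and MKK4 rose, by log2 differences of 0.27 (SE 0.08, adjusted p = 0.0191) and 0.57 (SE 0.12, adjusted p = 0.00226), and MKK2 lost its call without LSD1-GFP replicate 1 or wild-type replicate 3 (adjusted p 0.0562 to 0.0599). In LSD1-GR+DEX MKK4 alone was called (log2 0.52, SE 0.12, adjusted p = 0.00338), and a second kinase joined it on leaving out any 1 of the 3 LSD1-GR+DEX libraries. MPK3 and MPK6, the main kinases of WRKY33, were not called in any comparison with wild type.

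VQ motif proteins bind WRKY factors and tune their activity. Of 18 listed, 16 were tested, and 4 rose and 0 fell in lsd1-1, which is 25.0% against 8.3% of all genes tested. The median log2 difference of the list was 0.35 in lsd1-1, 0.00 in LSD1-GFP and 0.18 in LSD1-GR+DEX. The 4 that rose in lsd1-1 were AT1G78410, a VQ motif protein, at log2 2.54 (SE 0.31, adjusted p = 0.000207), JAV1, a repressor of jasmonate defence, at 0.88 (SE 0.20, adjusted p = 0.015), SIB1, a partner of WRKY33, at 1.56 (SE 0.35, adjusted p = 0.0183), and AT2G22880 at 1.20 (SE 0.30, adjusted p = 0.0237). Of these, AT1G78410 kept its call without any 1 library, and the count of 4 was 1 to 2 without wild-type replicate 2 or 3 or lsd1-1 replicate 1 or 2. With replicate number as a block 7 were called. In LSD1-GFP 1 rose and 1 fell, 12.5% against 29.1% of all genes. They were AT3G56880 at log2 0.54 (SE 0.14, adjusted p = 0.0114) and AT5G46780 at -0.45 (SE 0.12, adjusted p = 0.0129), and neither was called when LSD1-GFP replicate 2 or wild-type replicate 1 was left out (adjusted p 0.0519 to 0.0664). In LSD1-GR+DEX 6 rose and 1 fell, a share of 43.8% near the 36% of all genes, led by AT1G78410 at log2 1.89 (SE 0.32, adjusted p = 0.000486), with AT3G56880 as the fall at -0.88 (SE 0.15, adjusted p = 0.00053). That count of 7 was 4 without wild-type replicate 1.

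Among 22 genes with promoters known from other work to be bound by WRKY factors, 20 were tested, and 13 rose and 0 fell in lsd1-1, which is 65.0% against 8.3% of all genes. This list too was chosen with earlier results of these data known. The median log2 difference of the list was 1.16 in lsd1-1, 0.11 in LSD1-GFP and 0.82 in LSD1-GR+DEX. PAD3, the last enzyme of camalexin synthesis and a target of WRKY33, had 107, 103 and 86.4 CPM in lsd1-1, 15.8, 20.9 and 11.7 CPM in LSD1-GFP, 105, 172 and 97.2 CPM in LSD1-GR+DEX and 8.29, 15.4 and 7.94 CPM in wild type. Both lsd1-1 and LSD1-GR+DEX lay far above the other groups, at log2 differences from wild type of 3.22 (SE 0.31, adjusted p = 0.000214) and 3.56 (SE 0.32, adjusted p = 1.82e-05). CYP71A12, an enzyme of the same branch, was 9.53-fold higher in lsd1-1 (log2 3.25, SE 0.22, adjusted p = 5.29e-06) and 17.0-fold in LSD1-GR+DEX (log2 4.09, SE 0.22, adjusted p = 1.15e-07). CYP71A13, its near-identical neighbour, was 3.25-fold higher in lsd1-1 (log2 1.70, SE 0.18, adjusted p = 0.000116), and how reads were split between the pair is uncertain. EDS1, a central immune regulator, was 1.66-fold higher in lsd1-1 (log2 0.73, SE 0.09, adjusted p = 0.000223). Of the 13, CBP60G, NPR1 and AOX1A lost their calls without at least 1 library: CBP60G without wild-type replicate 1 or 3 (adjusted p 0.0597 to 0.0686), NPR1 without lsd1-1 replicate 1 or 3 or wild-type replicate 1, 2 or 3 (adjusted p 0.0549 to 0.166) and AOX1A without lsd1-1 replicate 1 or 2 or wild-type replicate 1 or 3 (adjusted p 0.073 to 0.13).

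The bound genes also include enzymes of salicylic acid synthesis and mitochondrial proteins. ICS1, the first enzyme of pathogen-induced salicylic acid synthesis, had 51.8, 51.6 and 53.7 CPM in lsd1-1, 20.9, 17.5 and 29.6 CPM in LSD1-GFP, 19.5, 16.9 and 19.3 CPM in LSD1-GR+DEX and 16.0, 16.2 and 26.6 CPM in wild type. It rose 2.67-fold in lsd1-1 (log2 1.42, SE 0.20, adjusted p = 0.000968) and did not differ beyond its spread between LSD1-GR+DEX and wild type (log2 -0.08, SE 0.21, adjusted p = 0.805). It was 2.82-fold higher in lsd1-1 than in LSD1-GR+DEX (adjusted p = 0.00034). BCS1, a mitochondrial outer membrane protein, had 92.0, 103 and 74.6 CPM in lsd1-1, 35.0, 32.7 and 25.8 CPM in LSD1-GFP, 143, 244 and 124 CPM in LSD1-GR+DEX and 16.6, 22.1 and 15.2 CPM in wild type. It rose 4.99-fold in lsd1-1 (log2 2.32, SE 0.27, adjusted p = 0.0005) and 9.46-fold in LSD1-GR+DEX (log2 3.24, SE 0.27, adjusted p = 9.42e-06), where AT2G21640 also rose (log2 2.91, SE 0.24, adjusted p = 4.88e-06). In LSD1-GR+DEX 11 of the 20 rose and 0 fell, against 36% of all genes called in either direction.

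In LSD1-GFP 3 of the 20 bound genes rose and 2 fell, a share of 25.0% near the 29.1% of all genes. AOX1A, the alternative oxidase, rose 2.20-fold (log2 1.14, SE 0.27, adjusted p = 0.00995). ORA59, a jasmonate and ethylene regulator that WRKY33 represses, fell 2.71-fold (log2 -1.44, SE 0.34, adjusted p = 0.00526). PR1, a marker of salicylic acid responses, had 492, 354 and 358 CPM in lsd1-1, 31.0, 12.1 and 21.8 CPM in LSD1-GFP, 110.4, 12.7 and 95.8 CPM in LSD1-GR+DEX and 304, 113 and 178 CPM in wild type. Its LSD1-GFP libraries lay below every wild-type library (log2 -3.20, SE 0.74, adjusted p = 0.0111), while in lsd1-1 it was 2.03-fold above wild type (log2 1.02, SE 0.65, adjusted p = 0.446) but missed the threshold. The count of 5 in LSD1-GFP was 3 when either LSD1-GFP replicate 2 or wild-type replicate 1 was left out, and PHT1;1 and BCS1 were the calls lost in both cases. Both were also lost without wild-type replicate 3 (adjusted p = 0.0987 and 0.161).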

How the data were processed

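Messenger RNA of 12 rosette samples, 3 biological repeats in each of 4 groups by the labels, was sequenced from stranded libraries. Per the submitters' processing notes reads went through Trimmomatic 0.30, GSNAP and HTSeq 0.6.1 with build TAIR10. Their settings are not given in these sources. The authors deposited raw counts per gene model, with no normalization, and every sample column was used.

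The counts were analysed with edgeR 4.0.16 in R 4.3.3. Genes were kept by filterByExpr (minimum count 10), scaled by TMM and fitted in all 12 libraries together with a robust quasi-likelihood model, at a biological coefficient of variation of 11.2%. The 6 pairwise comparisons and a joint test of the 4 groups used quasi-likelihood F tests with Benjamini-Hochberg adjustment over all 19487 genes, called at an adjusted p below 0.05. CPM values are TMM-scaled, and the SE is the size of the log2 difference over the square root of F. The fit was tested on simulated data. A rank or permutation test of single genes was not used, since 3 against 3 libraries cannot go below p = 0.1 in an exact test. The labels do not say whether repeats came from separate cultures, and the p-values set each group difference against the spread between these samples only.

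The 60 members and the partner and marker lists were chosen with earlier results of these data known. Values in every sample are given for members called in the joint test, for those with the lowest adjusted p in each comparison with wild type and for WRKY33, WRKY40, WRKY53 and WRKY70 whatever their call, and partner genes are named up to 4 per list and comparison by lowest adjusted p. Partner and marker genes named beyond that rule (among them ICS1, MPK3, MPK6 and the genes shown for LSD1-GR+DEX replicate 2) were chosen after their values were seen. Replicates of a group differed beyond sampling noise (chi-square per degree of freedom 2.21 to 13.2), so none was a repeat deposit. Same-numbered samples deviated together in lsd1-1 against wild type (r = 0.25, 0.17 and 0.39), LSD1-GFP against wild type (r = 0.21, 0.22 and 0.47) and lsd1-1 against LSD1-GFP (r = 0.20, 0.14 and 0.34). The main fit used group means only and did not pair these samples, so values given without mention of the block are unpaired. Pairing entered only through the alternative with the block. For LSD1-GR+DEX r was 0.04, 0.22 and 0.31 with wild type, -0.03, 0.12 and 0.33 with LSD1-GFP and 0.02, 0.16 and 0.28 with lsd1-1. In these comparisons r was near 0 for replicate 1, so no clear pairing was read from them. The alternative with replicate number as a block was fitted over all 12 libraries together. Alternatives were RLE size factors, no filter, a filter of 5 CPM in 3 libraries, DESeq2 1.42.0, only the groups compared, the block, and leaving out each replicate. Promoters were read from the TAIR10.1 genome, and gene names were matched by locus.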

Additional observations from a re-analysis of the deposited data

How the results depend on the processing

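The counts of called members kept within 1.5 times their value under RLE size factors, other filters, DESeq2, fits of only the groups compared and the block. Leaving out 1 library gave 10 to 12 members in lsd1-1 against wild type (14 with all libraries), 9 to 12 in LSD1-GFP (12), 16 to 23 in LSD1-GR+DEX (26), 15 to 19 in lsd1-1 against LSD1-GFP (18), 11 to 20 in LSD1-GR+DEX against LSD1-GFP (18) and 7 to 16 in lsd1-1 against LSD1-GR+DEX (11). The lowest counts came without wild-type replicate 1 (16) or 2 (17), without LSD1-GFP replicate 1 (11), and without lsd1-1 or LSD1-GR+DEX replicate 1 (7 each). The cause was not tested.

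Directions reversed for WRKY33 in lsd1-1 against LSD1-GR+DEX, at log2 -0.11 without LSD1-GR+DEX replicate 1 and -0.07 without replicate 3 (0.08 with all, 0.53 and called without replicate 2), and for WRKY40 in LSD1-GR+DEX against LSD1-GFP, at log2 -0.43 without LSD1-GR+DEX replicate 2 (0.26 with all, 0.54 without replicate 3). None of these was called with all libraries.

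With replicate number as a block, 19 members were called in lsd1-1 against wild type, 16 in LSD1-GFP against wild type and 23 in lsd1-1 against LSD1-GFP, and no call of these 3 comparisons was lost. Where same-numbered samples deviated together for replicates 2 and 3 but not for replicate 1, the block gave 28, 24 and 16 members for LSD1-GR+DEX against wild type, LSD1-GR+DEX against LSD1-GFP and lsd1-1 against LSD1-GR+DEX. Over all genes the block called 2889 in lsd1-1 against wild type (1617 without it) and 5335 in lsd1-1 against LSD1-GR+DEX (3469).

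Depth limits members near 1 CPM, which rest on few counts per library, as for WRKY38, WRKY59 and the 5 members below the filter.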

Other observations

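In the 1000 bases before the start, 50 of the 60 members (83.3%) held at least 1 W box and 35 (58.3%) held 2 or more, where 67.4% and 33.3% of all 26710 windows did. At least 1 box was found in 11 of the 13 members called higher in lsd1-1 (84.6%) and in 35 of the other 42 tested members (83.3%). For LSD1-GR+DEX it was 18 of 21 (85.7%) against 28 of the other 34 (82.4%), a smaller contrast than in the 250-base window. For LSD1-GFP it was 6 of 8 (75.0%) against 40 of the other 47 (85.1%). These are shares of letter matches, given as a description.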
